A study of Homo sapiens with 6 samples.

Results

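Eph receptors and their ephrin ligands were followed in 76N, a normal human breast epithelial cell line, given either a control siRNA (3 arrays) or an siRNA against Ecd (3 arrays). The members were 10 genes, EPHA1, EPHA2, EPHA3, EPHA4, EPHB2, EPHB4, EFNA1, EFNA5, EFNB1 and EFNB2, each read by every probe set whose only annotated symbol was that gene. This gave 22 probe sets of the 41091 with 1 symbol, for 9 of the 10 genes, out of 19775 genes read in this way. EPHB2 had no such probe set in the annotation used here and was not analysed here. The members were chosen by their signals in this same comparison, in which EPHA3 and EPHA4 were already known to lie among the largest rises. Their changes are therefore given as a description, and no p-value of this comparison is offered as support for them.

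Both groups were grown in DFCI-1 medium, and the labels call the 3 cultures of each group biological replicates. Not given in the sources used here were the siRNA sequences, the amount used and the interval before harvest. ECD, the targeted gene, is named after its fly counterpart ecdysoneless. ECD signal was 55.9% of control in the arrays labelled Ecd siRNA (577.1 ± 30.4 against 1032 ± 38.9, SD, n = 3 each), and the two-sided exact permutation p was 0.1, the smallest that 3 against 3 arrays allow.

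Eph receptors are the largest family of receptor tyrosine kinases, and they bind ephrins on the surface of neighbouring cells. A-type ephrins are held to the membrane by a lipid anchor and mostly bind EphA receptors, while B-type ephrins span the membrane, carry a cytoplasmic tail and mostly bind EphB receptors. EphA4 also binds B-type ephrins. Contact between the cells signals in both directions, and the pathway is known for repulsion, boundary formation and cell positioning, in epithelia as well as in growing axons.

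The arrays had been scaled to one level before deposit, with medians of 128.7 to 147.6 signal units and trimmed means of 499.6 to 499.8. Log2 signals of tested probe sets correlated at 0.969 to 0.976 within groups and at 0.942 to 0.955 between groups. The ratio of the 3' to the 5' control probe set was 1.07 to 1.11 for ACTB in the control arrays and 1.07 to 1.16 in the Ecd siRNA arrays. The epithelial label was matched by high signals of the basal keratin gene KRT14 (21386 ± 1315 in control arrays, 22350 ± 1273 in Ecd siRNA arrays, SD, n = 3 each) and of SFN, an epithelial 14-3-3 gene (23243 ± 1502 and 22933 ± 1499). Of 12 listed basal epithelial markers 9 were tested, while KRT17, TP63 and COL17A1 had no probe set with that single symbol. The list also held CDH1 and EPCAM, which are general epithelial genes. Of the 9 tested, 4 rose and 0 fell with limma (4 and 0 at an unadjusted p under 0.05). Among the 4 were the desmosomal gene DSG3, at a log2 change of 0.50, and CDH1, at 0.25. The CDH1 call was lost in 4 of 16 alternative settings. Beside the count of this list and the marker counts below, 9.31% of all 14614 tested genes rose and 10.2% fell, each read by its brightest probe set. Of 6 tested luminal markers 1, GATA3, rose and 1, KRT18, fell (1 and 2 at an unadjusted p under 0.05), and the GATA3 call was lost in probe sets without the suffixes _s, _x or _a (limma adjusted p = 0.223). Of 4 tested leukocyte markers 0 passed in either direction (0 also at an unadjusted p under 0.05). Among leukocyte markers PTPRC was dim (27.1 and 30.7 in mean signal), while CD79A (498 and 501.3), ITGAM (217.6 and 178.4), CSF1R (193.1 and 253.4) and LYZ (94.7 and 115.8) were bright enough to test. CD14 (111.6 and 38.8) and CD3E (88.5 and 59.2) were not tested, since their means over all 6 arrays were too low. In CD14 every Ecd siRNA array lay below every control array, while the groups overlapped in CD3E.

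The test took probe sets whose mean over the 6 arrays fell in the upper 60% of the array, which corresponded to a signal of 90.2. Of the 22 member probe sets, 17 passed this filter, at least 1 for each of the 9 genes. Changes are differences of log2(signal + 16), Ecd siRNA minus control siRNA, from limma fitted over all 27030 tested probe sets, and a probe set is called at a Benjamini-Hochberg adjusted p under 0.05. By that rule 8 of the 17 were called higher and 0 lower with limma (1 of the 17 was lower at an unadjusted p under 0.05). Over the whole array 8.36% of tested probe sets were called higher and 8.68% lower. The groups did not overlap in 9 of the 17, of which 8 were higher and 1 lower, and this was so in 33.7% of all tested probe sets. Since the members were chosen on this comparison, nothing is read from these shares. In addition, 4 of the 8 called probe sets had control means under the filter signal and passed only through their Ecd siRNA arrays, so they had to differ.

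**Figure D1:**
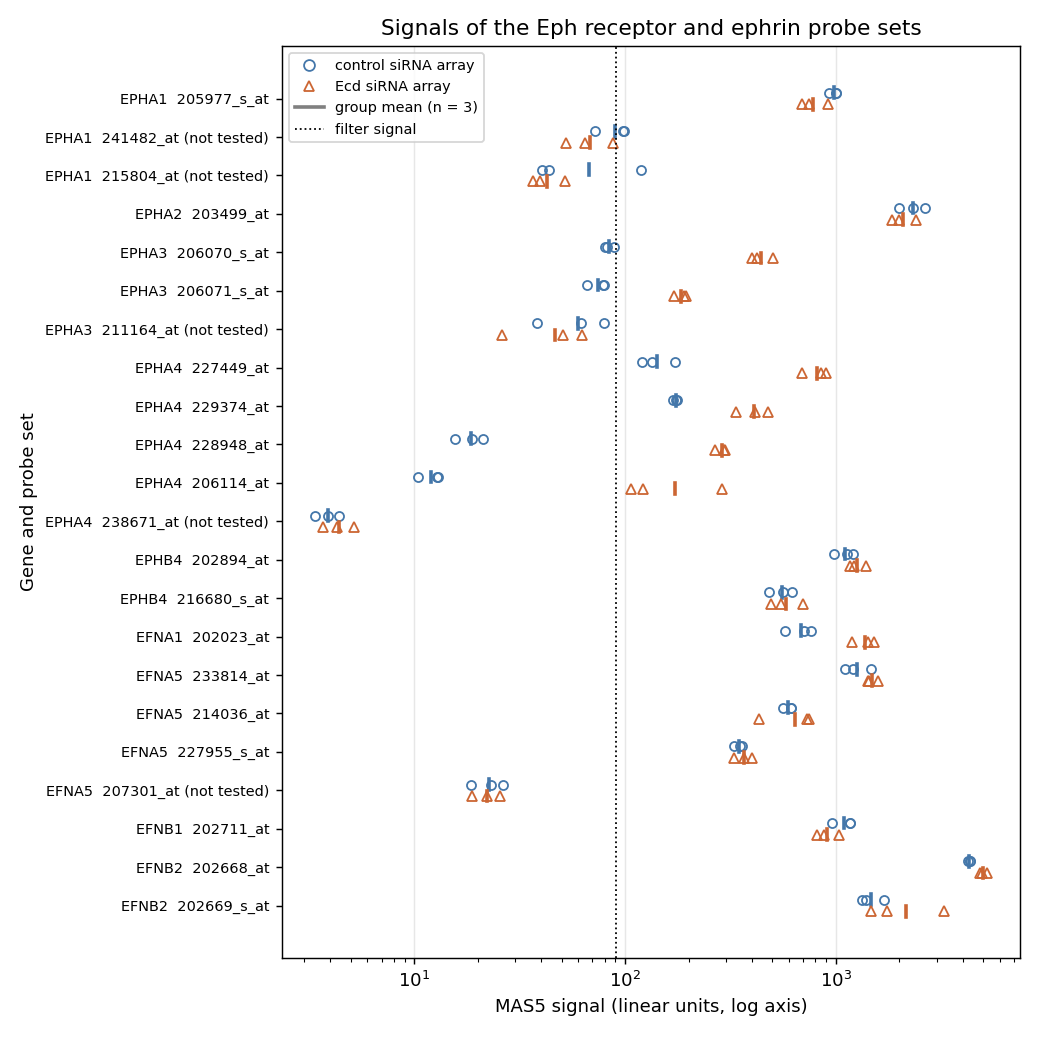
MAS5 signal (linear units on a log axis) of all 22 member probe sets, with open circles for control siRNA arrays, open triangles for Ecd siRNA arrays, bars for the group means (n = 3) and a dotted line at the filter signal of 90.2. The arrays separate by group in the tested probe sets of EPHA3 and EPHA4 and in that of EFNA1, and they overlap in those of EPHA2, EPHB4, EFNA5 and EFNB1. They also separate in 205977_s_at of EPHA1, with Ecd siRNA arrays lower, and in 202668_at of EFNB2, with Ecd siRNA arrays higher.

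Among the A-type receptors, EPHA4 and EPHA3 rose. EPHA4 encodes a receptor that binds ephrins of both classes. Its brightest probe set, 227449_at, read 172.5, 134.2 and 120.0 in control arrays but 851.8, 692.3 and 900.0 after Ecd siRNA. The lowest Ecd siRNA array lay well above the highest control array. The means were 142.2 ± 27.2 and 814.7 ± 108.7 (SD, n = 3 each), a ratio of 5.73 and a log2 change of 2.40 with an SE of 0.17.

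The other EPHA4 probe sets that were bright enough to test were also higher, by different amounts. The control means of 228948_at and 206114_at, 18.6 and 12.1, were under the filter signal. These probe sets passed only through their Ecd siRNA arrays, so both had to be higher. Of the other tested EPHA4 probe sets, only 229374_at was free to differ in direction. Probe set 229374_at read 175.3, 175.7 and 169.6 in control arrays against 414.9, 335.0 and 474.5 in Ecd siRNA arrays, a log2 change of 1.15 (SE 0.16). Probe set 228948_at was near the bottom of the scale in control arrays, at 18.8, 21.3 and 15.6, and reached 296.0, 297.2 and 267.8 with Ecd siRNA. Its log2 change was 3.13 (SE 0.29), but 3.89 with a pseudocount of 1 and 2.09 with 64. The groups did not overlap in 229374_at or in 228948_at.

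Probe set 206114_at of EPHA4 read 13.0, 12.8 and 10.4 in control arrays and 288.9, 106.9 and 121.8 with Ecd siRNA. Replicate 1 of the Ecd siRNA group lay far above the other 2 arrays of its group. Its log2 change was 2.62 (SE 0.47), or 3.59 and 1.56 with pseudocounts of 1 and 64, and without Ecd siRNA replicate 1 or 3 its mean fell under the filter, so it was no longer tested. The fifth EPHA4 probe set, 238671_at, stayed between 3.4 and 5.2 on all 6 arrays, below the filter. The 4 tested EPHA4 probe sets thus ranged from 1.15 to 3.13 in log2 change, and the size of the rise depends on the probe set read.

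EPHA3 encodes a receptor that binds A-type ephrins. Its probe set 206070_s_at read 89.1, 80.7 and 81.9 in the control arrays, all under the filter signal, but 424.8, 401.2 and 504.2 after Ecd siRNA. The groups were far apart, with means of 83.9 ± 4.54 and 443.4 ± 54.0 (SD, n = 3 each) and a ratio of 5.28. The log2 change was 2.20 (SE 0.17), or 2.38 with a pseudocount of 1 and 1.77 with 64.

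The other tested EPHA3 probe set, 206071_s_at, gave a smaller difference, from 78.6, 79.8 and 66.1 to 189.9, 170.2 and 195.2 (log2 change 1.15, SE 0.23). Its control mean, 74.8, was also under the filter signal. The 2 tested EPHA3 probe sets thus passed only through their Ecd siRNA arrays, so both had to be higher. Both tested EPHA3 probe sets carry the suffix _s, which marks probes that can match more than 1 transcript. Probe set 211164_at of the same gene did not follow them. It read 62.1, 79.2 and 38.2 in control arrays and 50.8, 62.7 and 26.0 with Ecd siRNA, so its groups overlapped below the filter.

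Markers of fibroblasts were read beside these receptors. Of 12 listed genes 7 were tested, of which 2 rose, 5 did not pass and 0 fell with limma (2 and 0 at an unadjusted p under 0.05), with a median log2 change of 0.11. Over all tested genes, each by its brightest probe set, 9.31% rose and 10.2% fell. The summed signal of the 12 was 4594 to 5312 in control arrays and 7547 to 8376 in Ecd siRNA arrays, and most of that difference came from FAP alone. The 2 that rose were FAP, which encodes a surface protease, whose mean went from 2610 to 5334 (limma adjusted p = 4.89e-05), and the collagen gene COL1A1, from 600 to 872.4 (adjusted p = 0.0144). Of the 4 tested COL1A1 probe sets 1 passed and 1 was lower, and its call was lost without control siRNA replicate 2 (adjusted p = 0.0523) or Ecd siRNA replicate 1 (adjusted p = 0.436). The fibroblast genes PDGFRA (63.0 and 59.4), PDGFRB (85.1 and 93.4), COL3A1 (55.2 and 23.0), LUM (71.4 and 83.3) and TCF21 (24.9 and 42.1) lay below the filter by their mean over all 6 arrays. The part of these markers in the EPHA3 and EPHA4 values was not tested. In bulk RNA a change in the share of cells of a type and a change in RNA per cell cannot be told apart.

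The stretches before the annotated starts of EPHA4 and EPHA3, the receptors with the largest changes, and of EFNA1, the member ephrin with the largest, are shown to place these genes. They are the 250 bases upstream of each start, 5' to 3' on the gene's strand, from RefSeq on GRCh38.p14, whose table held all 10 members with 12 starts. EPHA4 has 2 annotated starts in that table. Capitals mark letters of the GC box (GGGCGG), the CCAAT box (CCAAT), the AP-1 element (TGANTCA) and the E-box (CACGTG) on either strand, and matches that touch run together.

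EPHA4 first start, chr2:221574203-221574452, minus strand: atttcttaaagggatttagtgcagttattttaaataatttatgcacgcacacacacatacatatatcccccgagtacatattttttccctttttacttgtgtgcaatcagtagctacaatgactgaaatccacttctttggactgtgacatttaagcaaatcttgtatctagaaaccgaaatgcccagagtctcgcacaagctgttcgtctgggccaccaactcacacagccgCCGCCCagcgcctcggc
EPHA4 second start, chr2:221572305-221572554, minus strand: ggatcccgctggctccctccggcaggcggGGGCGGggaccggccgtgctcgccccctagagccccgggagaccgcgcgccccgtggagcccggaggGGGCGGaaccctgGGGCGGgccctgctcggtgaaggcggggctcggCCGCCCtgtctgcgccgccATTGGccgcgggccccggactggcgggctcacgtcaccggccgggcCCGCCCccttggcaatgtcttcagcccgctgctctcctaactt
EPHA3, chr3:89107371-89107620, plus strand: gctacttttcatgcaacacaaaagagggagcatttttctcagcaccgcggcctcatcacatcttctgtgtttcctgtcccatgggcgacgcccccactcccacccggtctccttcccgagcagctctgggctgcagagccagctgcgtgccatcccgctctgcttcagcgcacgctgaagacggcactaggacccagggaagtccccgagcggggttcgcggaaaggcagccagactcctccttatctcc
EFNA1, chr1:155127626-155127875, plus strand: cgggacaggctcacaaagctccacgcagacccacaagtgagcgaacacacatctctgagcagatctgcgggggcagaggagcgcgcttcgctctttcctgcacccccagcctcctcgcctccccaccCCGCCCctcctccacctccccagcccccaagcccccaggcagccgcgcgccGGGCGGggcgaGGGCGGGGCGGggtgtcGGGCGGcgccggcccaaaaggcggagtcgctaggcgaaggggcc

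The EPHA3 stretch held 0 matches to any of the 4 motifs and was 61.2% G and C. The first EPHA4 start was 43.2% G and C with 1 GC box, and the second was 78% G and C with 5 GC boxes and 1 CCAAT box. The EFNA1 stretch had 5 GC boxes at 73.2% G and C. A GC box was present in 42.6% of the 35116 stretches of the same length in the table, a CCAAT box in 32%, an AP-1 element in 6.57% and an E-box in 6.34%. A match describes letters only, and the arrays hold no measurement of binding or of which start was used.

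The other A-type receptors did not pass the threshold. EPHA2 encodes the EphA receptor best known in epithelial cells, where it binds ephrin-A1 at cell contacts. It read 2316.3, 2651.4 and 1981.5 in control arrays and 2393.7, 1982.3 and 1836.3 with Ecd siRNA. The groups overlapped, and the log2 change was -0.16 (SE 0.13). EPHA1 read 1006.5, 1000.3 and 927.8 against 688.0, 915.5 and 744.7 in probe set 205977_s_at. Here every Ecd siRNA array lay below every control array, at a log2 change of -0.33 (SE 0.12). It was called lower only when Ecd siRNA replicate 2, the highest of its group, was left out (-0.44). The other 2 probe sets of EPHA1 lay below the filter, with overlapping groups.

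EPHB4, the receptor of ephrin-B2, was the only B-type receptor measured among the members. Its probe set 202894_at read 1206.1, 980.1 and 1127.0 in control arrays and 1395.7, 1224.0 and 1166.3 in Ecd siRNA arrays. The groups overlapped at a log2 change of 0.19 (SE 0.11). In probe set 216680_s_at the change was 0.06 (SE 0.15). Neither passed the threshold.

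**Figure D2:**
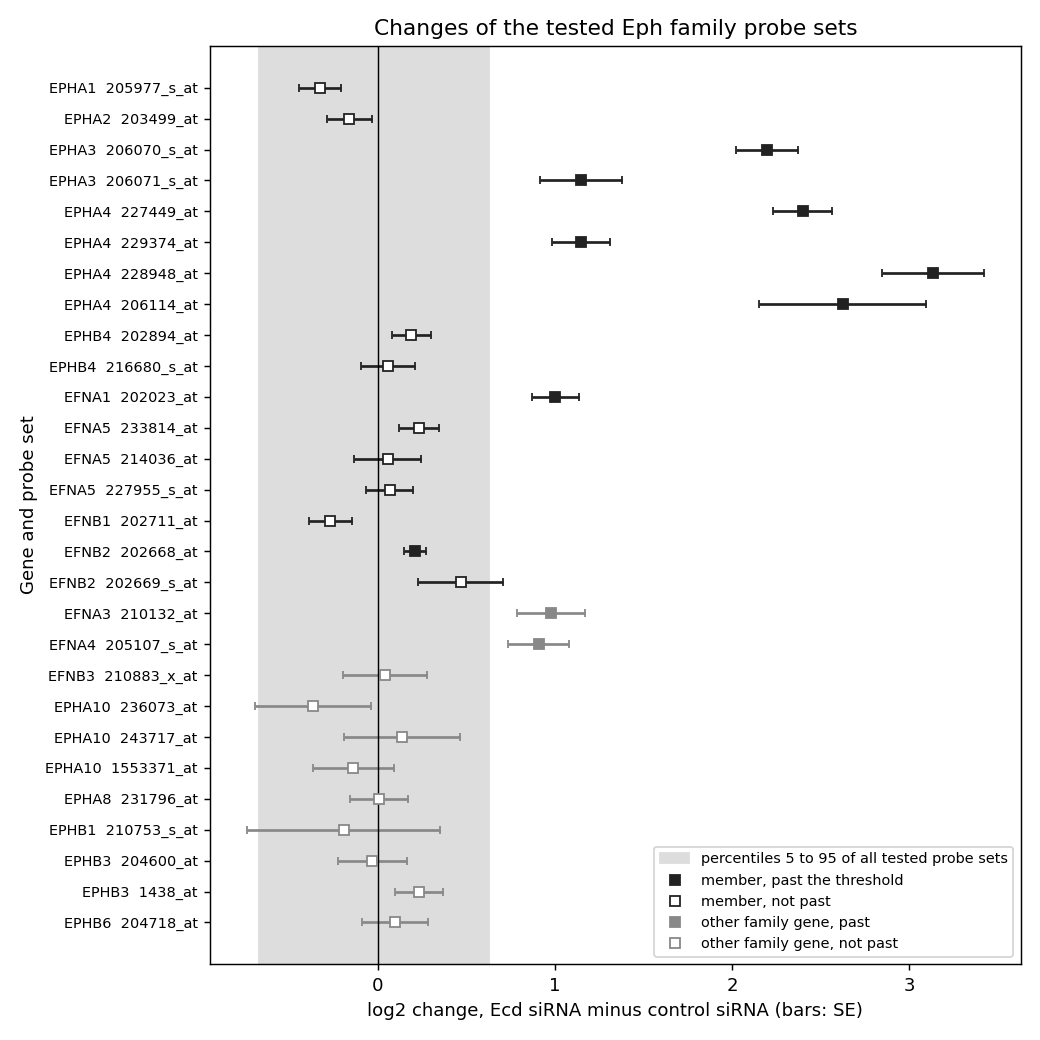
Log2 change (Ecd siRNA minus control siRNA, bars for the SE) of the 17 tested member probe sets in black and the 11 tested probe sets of other family genes in grey, filled where past the threshold. The grey band spans percentiles 5 to 95 of all tested probe sets, -0.67 to 0.63, and the probe sets beyond it belong to EPHA3, EPHA4, EFNA1, EFNA3 and EFNA4.

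Of the A-type ephrins, EFNA1 rose. It encodes ephrin-A1, a ligand of EphA2 first described as a gene induced by tumour necrosis factor. Its only probe set read 707.8, 574.0 and 761.2 in control arrays but 1515.2, 1426.2 and 1190.2 after Ecd siRNA. The groups did not overlap, and the means were 681.0 ± 96.4 and 1377 ± 168 (SD, n = 3 each). The ratio was 2.02 and the log2 change 1.0 (SE 0.13).

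EFNA5, whose protein binds several EphA receptors, including EphA3, did not pass in any of its 3 tested probe sets. The brightest, 233814_at, read 1211.5, 1105.8 and 1471.9 against 1420.9, 1439.8 and 1576.7, and the groups overlapped (log2 change 0.23, SE 0.11). Probe sets 214036_at and 227955_s_at were at 0.06 (SE 0.19) and 0.07 (SE 0.13). Probe set 207301_at lay between 18.5 and 26.5 on all arrays, below the filter.

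The B-type ephrins showed smaller differences. EFNB2 encodes ephrin-B2, a ligand of EphB4 and EphA4. Its probe set 202668_at read 4304.3, 4340.7 and 4253.8 in control arrays and 4907.5, 4841.8 and 5202.6 with Ecd siRNA. The groups did not overlap, with a ratio of 1.16 and a log2 change of 0.21 (SE 0.06). This small difference was called at a limma adjusted p of 0.0481. The call was lost on leaving out any of the 6 arrays in turn (0.18 to 0.23) and in 4 of the 11 other alternatives, with adjusted p from 0.0306 to 0.271 over all alternatives.

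Probe set 202669_s_at of EFNB2 read 1391.4, 1687.4 and 1332.7 against 3239.8, 1750.6 and 1474.1. Replicate 1 of the Ecd siRNA group stood far above the other 2 arrays, and the groups overlapped at a log2 change of 0.47 (SE 0.24), not past the threshold. EFNB1, which encodes ephrin-B1, read 963.3, 1160.8 and 1164.0 against 877.8, 811.5 and 1036.2. Its groups overlapped too, at -0.27 (SE 0.12), and it did not pass. Endothelial cells, which are known for ephrin-B2 and EphB4, were followed by 10 marker genes. Of these 4 were tested and 0 passed in either direction with limma (0 also at an unadjusted p under 0.05). The 4 were PECAM1 (476.4 and 409.4 in mean signal), ROBO4 (325.9 and 295), TEK (303.1 and 280.3) and CLDN5 (89.8 and 144.5). The other 6, among them CDH5 (53.6 and 50), VWF (27.9 and 37.5) and KDR (82.4 and 70.5), lay below the filter. The part of these markers in the EFNB2 and EPHB4 values was not tested.

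The remaining 12 Eph and ephrin genes were not members, and all 12 had probe sets, 28 in number. Of these 11 probe sets of 8 genes passed the filter, and 2 rose and 0 fell with limma (2 and 0 at an unadjusted p under 0.05). Both that rose encode A-type ephrins. Of all 27030 tested probe sets, 8.36% were called higher and 8.68% lower. EFNA3 read 146.1, 209.0 and 140.7 in the control arrays and 356.1, 370.3 and 287.3 with Ecd siRNA. The groups did not overlap, and the difference was 0.98 on the log2 scale (SE 0.19, limma adjusted p = 0.00699). EFNA4 read 287.0, 227.9 and 265.2 against 640.9, 454.6 and 429.1. Here too the groups were apart, and the difference was 0.91 (SE 0.17, limma adjusted p = 0.0057). Both calls held in every alternative in which these genes could be read, 17 for EFNA3 and 16 for EFNA4.

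The other 6 tested genes did not pass the threshold. Their log2 changes in the brightest probe set were -0.36 (SE 0.33) for EPHA10, -0.19 (SE 0.54) for EPHB1, -0.03 (SE 0.20) for EPHB3, 0.01 (SE 0.16) for EPHA8, 0.04 (SE 0.24) for EFNB3 and 0.10 (SE 0.18) for EPHB6. Of these, EPHA10 and EPHB6 encode receptors known to lack kinase activity. EPHA5, EPHA6, EPHA7 and EFNA2 lay below the filter in all their probe sets.

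EFNA1, EFNA3 and EFNA4 lie side by side on chromosome 1. In the RefSeq gene table the nearest protein-coding genes before EFNA1 were EFNA3 and the readthrough gene EFNA4-EFNA3, which joins EFNA4 to EFNA3 and had no probe set of its own, so its RNA could not be told apart from that of its parts. The next genes on the other side of EFNA1, named after their values were seen, did not pass, with SLC50A1, a sugar transporter gene, at -0.26 (limma adjusted p = 0.225) and DPM3, a mannosyltransferase subunit gene, at 0.28 (adjusted p = 0.245). Around all 10 members, the 2 nearest protein-coding genes on either side made 40 genes, of which 25 were tested. Of these 2 rose, EFNA3 and PROS1, and 0 fell with limma (4 and 1 at an unadjusted p under 0.05). Among all 14614 tested genes, each by its brightest probe set, 9.31% rose and 10.2% fell, and nothing is read from the neighbour count. PROS1, which encodes the anticoagulant protein S, follows EPHA3 in the order of the RefSeq gene table and rose by 1.08 (SE 0.10, limma adjusted p = 8.76e-05). That order gives no distance, so PROS1 and EPHA3 need not lie close together.

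**Figure D3:**
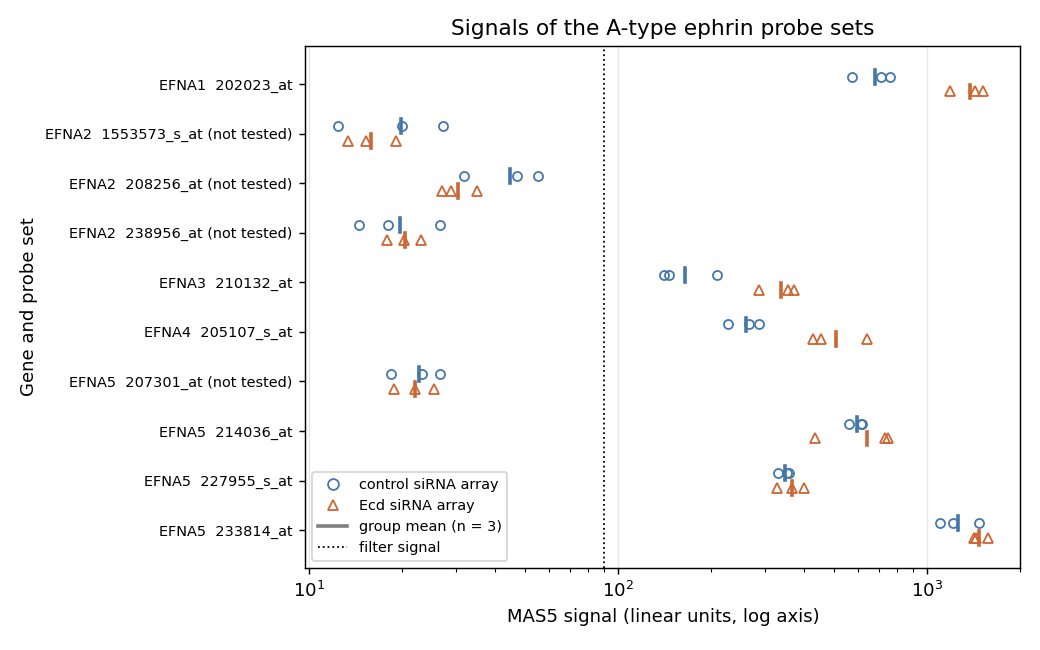
MAS5 signal (linear units on a log axis) of the A-type ephrin probe sets in control siRNA arrays (circles) and Ecd siRNA arrays (triangles), with bars for group means (n = 3) and a dotted line at the filter signal. EFNA1, EFNA3 and EFNA4 separate by group, while the tested EFNA5 probe sets overlap and those of EFNA2 lie under the filter.

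Genes that act below the receptors were described by 2 lists, each gene by its brightest probe set. Over all 14614 tested genes read this way, 9.31% were called higher and 10.2% lower, with a median log2 change of 0.01. Among 26 tested adaptors, kinases and phosphatases close to the receptors, 6 rose and 1 fell, leaving 19 not past the threshold (median 0.05). The adaptor gene NCK1 rose from 2877 ± 87.7 to 3976 ± 53.8 (log2 change 0.46, limma adjusted p = 0.00114), in all of its 4 tested probe sets. PIK3R1, a regulatory subunit gene of PI3 kinase, was at 0.69 (adjusted p = 0.0015), with 3 of 3 probe sets called. The focal adhesion kinase gene PTK2 was at 0.49 (adjusted p = 0.00134), but 1 of its 3 tested probe sets was at -0.44. SRC, whose kinase is recruited by Eph receptors, fell from 761.2 ± 50.7 to 205.4 ± 121.1 (SD, n = 3 each) in its brightest probe set (log2 change -1.96, adjusted p = 0.00259). All 5 tested SRC probe sets were lower, by -0.11 at the least, and 1 of the 5 passed.

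Partners of ephrins and the proteases that shed them held 12 tested genes, of which 1 rose and 2 fell, leaving 9 not past the threshold (median -0.01). NCSTN, which encodes nicastrin of gamma-secretase, was at 0.45 (limma adjusted p = 0.0131), a call lost with the arrays scaled to a common median (adjusted p = 0.0583) or without an intensity trend (adjusted p = 0.0568). The phosphatase gene PTPN13, whose protein binds B-type ephrins, was at -0.37 (adjusted p = 0.0365), and GIT1, an adaptor gene, was at -0.53 (adjusted p = 0.0366). The PTPN13 call was lost without control siRNA replicate 2 or 3 or Ecd siRNA replicate 1 or 2 (limma adjusted p up to 0.114), and also with a common median (0.115), no filter (0.0531) or no intensity trend (0.105). The GIT1 call was lost without control siRNA replicate 2 or 3 or Ecd siRNA replicate 2 or 3 (adjusted p up to 0.118), and with a common median (0.0657), no filter (0.0651), no intensity trend (0.106) or array weights (0.0646).

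Related families were set beside the Eph genes. Of 32 tested other receptor tyrosine kinases, 2 rose and 2 fell, leaving 28 not past the threshold (median 0.12). IGF1R (0.54) and ROS1 (1.07) rose, while AXL (-0.31) and FGFR2 (-0.36) fell. Of their tested probe sets, 2 of 4 were called for IGF1R and 1 of 2 for ROS1. For AXL it was 1 of 2, and for FGFR2 1 of 6. Within each of these genes all tested probe sets changed in the same direction. The FGFR2 call was lost without any 1 of the 6 arrays except Ecd siRNA replicate 1, and it was not made in probe sets without the suffixes _s, _x or _a (-0.01). It was also lost with the replicate block (limma adjusted p = 0.0635), quantile normalization (0.0577), a common median (0.103), no filter (0.053) or no intensity trend (0.0772). Leaving out either of control siRNA replicates 1 and 2, or of Ecd siRNA replicates 1 and 3, ended the AXL call (limma adjusted p as high as 0.122), as did a common median (0.078) or no intensity trend (0.102).

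Semaphorins, plexins, neuropilins, netrins, Slits and their receptors, which like ephrins guide cells and axons, held 39 tested genes. Of these 9 rose and 2 fell, leaving 28 not past the threshold (median 0.03). The semaphorin gene SEMA6A rose from 218.1 ± 38.0 to 805.4 ± 120.7 (log2 change 1.81, limma adjusted p = 6.19e-05), in 3 of 3 probe sets, and SEMA3C was at 0.64 in its brightest probe set (adjusted p = 8.38e-05). NRP1, a co-receptor gene of class 3 semaphorins, fell from 3032 ± 162.2 to 1455 ± 145 (log2 change -1.05, adjusted p = 5.29e-05), and PLXNA2, a plexin gene of the same pathway, fell by 1.10 on the log2 scale (adjusted p = 0.000122). Other plexin genes were called higher, namely PLXNB3 (1.21), PLXNB2 (0.88), PLXNA3 (0.80) and PLXNB1 (0.46), while PLXNA1, PLXNC1 and PLXND1 did not pass. The control mean of PLXNB3, 75.8, was under the filter signal, so it passed the filter only through its Ecd siRNA arrays. No difference between these lists and the Eph genes was tested.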

How the data were processed

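RNA from 3 control siRNA and 3 Ecd siRNA cultures of 76N cells was hybridised to 6 single-colour arrays of 54675 probe sets. Per the submitters' processing notes, the deposited intensity values were made by the authors with MAS5, and they arrive scaled to one level. A probe set was named only through the platform annotation given with the arrays, in which 41091 had 1 symbol, 1801 several and 11721 none, while 62 were controls. Levels of different probe sets were compared only for the filter, the brightest probe set of a gene, summed markers and remarks on signal level.

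Probe sets with 1 symbol in the upper 60% by mean signal (27030) were tested with limma 3.58.1 in R 4.3.3 (lmFit, then eBayes with an intensity trend) on log2(signal + 16), without covariates, and Benjamini-Hochberg adjustment ran over all of them. The replicate number was not taken to pair the arrays, since the deviations of same-numbered arrays correlated at 0.00, 0.08 and 0.12. The number of arrays, 3 a group, limits the precision. The p-values reflect only how much these cultures varied.

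The members, the gene lists and the tests were chosen with earlier results of these data known. Named genes were all members, the other family genes tested, up to 4 genes of a pathway list by adjusted p, up to 3 called markers of a cell type and the 2 brightest basal ones. Other uncalled markers given with their signals, such as PTPRC, PDGFRA and PECAM1, were named outside this rule. The other tested plexin genes, CD14 and CD3E were named after their values were seen. Neighbouring genes and the stretches before gene starts came from RefSeq tables, the latter on GRCh38.p14. On data simulated for this comparison (27030 probe sets, 200 of them changed), 48% of changes of 1 and 13% of changes of 0.5 on the log2 scale were recovered, and 1 of 62 calls was false. In the real comparison a far larger share was called, 8.36% higher and 8.68% lower. The adjusted p depends on the share changed, so the simulated recovery does not give the recovery in the real comparison. Alternatives covered the pseudocount, scaling, filter, choice of probe sets, trend, array weights, replicate block and each array left out. One further gene list is not reported here.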

Additional observations from a re-analysis of the deposited data

How the results depend on the processing

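EPHA3 (1.77 to 2.38), EPHA4 (2.09 to 2.53) and EFNA1 (0.89 to 1.10), read by the brightest probe set tested, had these ranges of log2 change over the alternatives in which they were tested, and since the members were chosen on this comparison the ranges are a description only. Of the 8 member probe sets called higher, 5 were called with the filter at the upper 40% and 4 with the brightest probe set of each gene, since the others were then not tested. Members called lower numbered 0 to 1 on leaving out each array. Over the whole array, 1506 probe sets were called higher with a common median, 1478 with the brightest probe set of each gene and 1340 with probe sets without the suffixes _s, _x or _a, and in the last 1237 were called lower. Leaving out each array gave 1477 to 1935 higher and 1542 to 2132 lower. With the replicate number as a block (replicate block), 2301 were higher and 2355 lower, and EFNB2 was the only member to lose its call (limma adjusted p = 0.0644). Among genes not past the threshold, EPHA8 turned to -0.0017 with a common median and to -0.0302 with array weights, and EPHB3 to 0.0004 with array weights. On leaving out each array, EPHB1 ranged from -0.7895 to 0.3001, EFNB3 from -0.274 to 0.2161, EPHB3 from -0.1563 to 0.1732, EPHA8 from -0.1063 to 0.1557 and SFN from -0.0741 to 0.0183. Where not stated, the cause was not tested. Signals under the filter limit what can be read of the dim probe sets.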
